A study of Mus musculus with 2 samples.

Results

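In long-read RNA-seq 1 read can follow an RNA across all of its exons, so that the joins it carries can be compared with those of annotated transcripts. The models described here are spliced transcripts that the authors' program TALON classed as known splice sites in a combination that no annotated transcript has, with a count of 5 or more reads in either library. There were 1546 such models, matched between the libraries by chromosome, strand and chain of splice junctions, among 24117 chains of this class at any count, 15192 spliced chains of any class with 5 or more reads and 117095 spliced chains in all. The models were thus chosen by class and read count, so their read numbers are a description and support nothing by themselves.

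The samples were 2 biological replicates of adrenal gland tissue from C57BL/6J mice, sequenced as total RNA and forming 1 group with no treatment or second condition. A free-text note calls the animals wild-type females, while the sex field says that it was not collected, and the age is unknown. Both biosamples carry the same donor entry, so nothing states that they came from different animals, and any p-value below measures only the difference between these samples, which may be technical. Replicate 1 held 810239 reads and replicate 2 held 587861, of which 85.6% and 92.1% were on spliced models. The median model length, weighted by reads, was 1612 nucleotides (nt) in replicate 1 and 3009 nt in replicate 2. Genes that mark the adrenal cortex held 7.73% and 9.09% of the reads and 6 genes of the medulla held 0.620% and 0.850%. All of the 12 cortex and medulla genes were read in both libraries, whereas 5 kidney genes held 33 and 22 reads, all on Cyp4b1, 3 liver genes held 2 and 0, and 3 adipocyte genes held 102 and 21.

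Splicing removes an intron between a donor site, at the end of one exon, and an acceptor site, at the start of the next. A gene can join its sites in different ways: an exon can be skipped, an intron can stay in the RNA, a donor or acceptor can move to a neighbouring site, and a first or last exon can be exchanged. Most annotated introns begin with GT and end with AG. When a change moves the reading frame, a stop codon can come to lie well before the last junction, a position that is known to mark an RNA for nonsense-mediated decay.

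The models with the most reads or the largest part of their gene's reads were often set apart from the annotation by a few bases, and those bases are printed here. All sequences are reference bases of GENCODE M21 transcripts on mm10 at the positions of the models, 5′ to 3′, since the reads' own bases are not used here. In the antizyme genes Oaz1 and Oaz2 the annotation leaves out 1 base (in capitals), at chr10:80828295-80828295 and chr9:65686272-65686272 on the plus strand, and writes the break as an intron. Antizymes, which bind ornithine decarboxylase and lead it to degradation, are made by a ribosomal frameshift, and the base left out is the first of the stop triplet TGA at which the ribosome shifts.
Oaz1: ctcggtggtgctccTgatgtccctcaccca
Oaz2: ctctgtggtgctccTgatgcccctcaccca

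In the next pairs the join of the closest annotated transcript holds a very short exon (in capitals) and the model lacks it. In Phb2 the join without the exon is itself annotated in another transcript, while in Hnrnpk, Idh3g and Sept7 it is absent from M21. Any bases that the model has beyond the annotated exon ends are in capitals in its line. The short exons lie at chr13:58393853-58393868 (Hnrnpk, minus strand), chrX:73782298-73782309 (Idh3g, minus strand), chr6:124716425-124716430 (Phb2, plus strand) and chr9:25265302-25265306 (Sept7, plus strand).
Hnrnpk annotated: accacagGGTGGTTCTGGATATGactattc
Hnrnpk model: accacagGTTGAGTATCAATAATactattc
Idh3g annotated: atttcctcaCAACAAACAATTcctccatct
Idh3g model: gagcatttcctcaGTAAcctccatctgcta
Phb2 annotated: aagttttactcgGGGAAGtgacagcctcat
Phb2 model: tgaaagttttactcgtgacagcctcattaa
Sept7 annotated: gcggcaccatggTTTGTcaaccgaagaacc
Sept7 model: actgcggcaccatggcaaccgaagaacctt

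In Hnrnpk the 16 nt of the exon were replaced by 16 nt that follow the annotated donor, and 8 of the 16 positions had the same base. In Idh3g the exon of 12 nt was replaced by 4 nt that follow the annotated donor. In both genes the added bases began with GT, which follows from their place directly after an annotated donor, since most annotated introns begin with GT.

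The 1546 models came from 1058 genes, and 1524 of them from protein-coding genes. In 799 genes there was 1 model, in 173 there were 2, in 61 there were 3 or 4, and in 25 there were 5 or more. The models had a median of 10 exons, from 2 to 50, and a median length of 2810 nt, beside 8 exons and 2505 nt for the 9740 annotated spliced chains with 5 or more reads.

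Each chain was compared with the annotated junctions of GENCODE M21. New combinations of junctions that were each annotated made up 777 models (50.3%). A further 348 (22.5%) had only annotated junctions and kept an annotated intron inside an exon. A new junction between known sites skipped 1 or more exons in 126 models and skipped none in 25. In 11 models no single annotated gene held all of the sites (the structure named as spanning 2 genes), and in 5 an annotated gap too short to be an intron was filled. The remaining 254 (16.4%) went against the name of the class, because at least 1 of their sites was not a splice site of any M21 transcript. In 247 of these 254 the same site was also in a model that TALON classed as having an unannotated site in the same library, and in 246 that model had the lower model number. A junction absent from M21 was present in 411 models (26.6%), while in 1135 all junctions were annotated. Of those 1135, 1012 (89.2%) could be laid out as 2 runs of junctions, each run from 1 annotated transcript, and 111 as 3 runs.

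**Figure D1:**
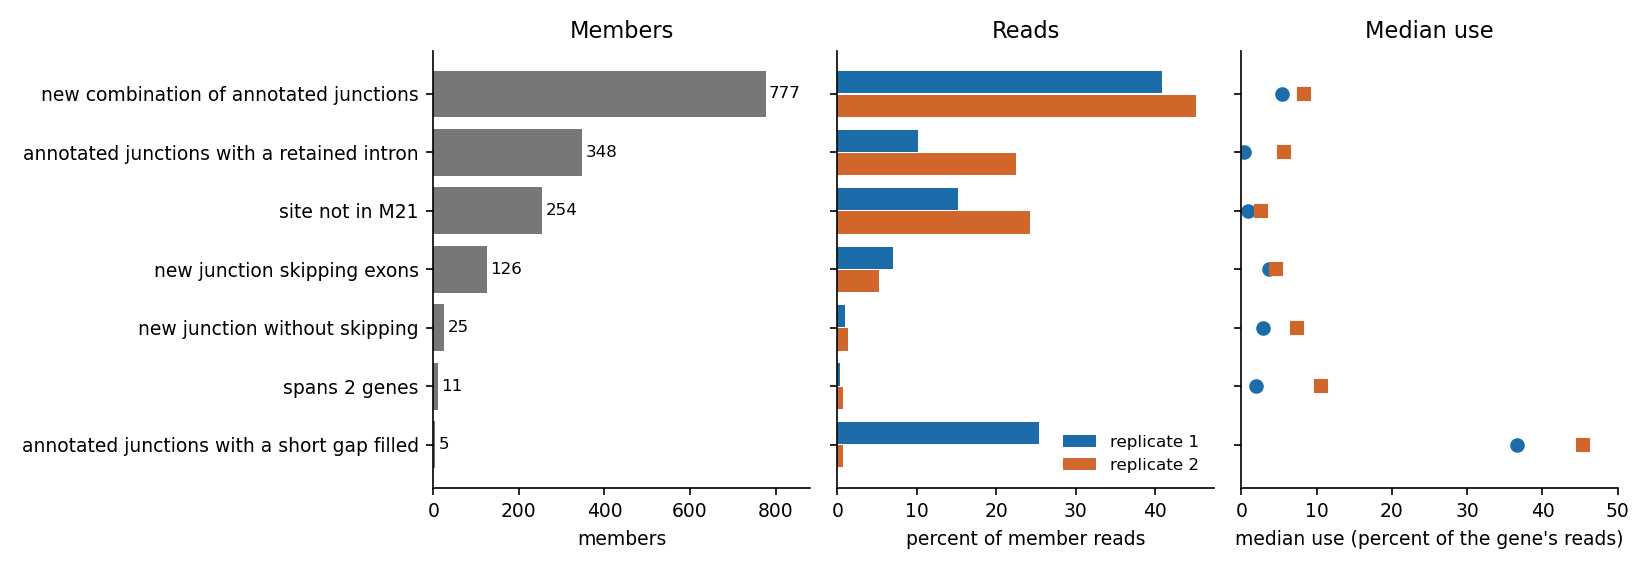
Number of models (left), percent of all reads on the models in each library (middle) and median use, the percent of the gene's reads on the model (right), for each of the 7 structures. New combinations of annotated junctions were 777 of 1546 models. Models with a short gap filled held 25.4% of the reads on the models in replicate 1 and 0.696% of those in replicate 2.

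The structures differed with read number. Among the 22571 chains of the same class below the threshold, 23.9% were new combinations of annotated junctions, 34.5% kept an intron and 18.6% skipped exons by a new junction. Sites absent from M21 were in 19.9% of the chains below the threshold, near the 16.4% above it. Just below the threshold, 611 chains had a highest count of 4, of which 42.1% were in both libraries and 83.0% had sites that were all annotated. Just inside it, 339 chains had a highest count of 5, with 49.6% in both libraries and 85.8% with annotated sites alone.

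The models held 13462 reads in replicate 1, which was 1.66% of all reads (95% Clopper-Pearson interval 1.63 to 1.69), and 19981 reads in replicate 2, which was 3.40% (3.35 to 3.45). The mean was 2.53% ± 1.23 (SD, n = 2). Intervals cover counting error only, since amplified reads are not independent molecules. Replicate 1 alone chose 595 models and replicate 2 alone chose 1179. A single model, Oaz1#1, held 3229 of the reads of replicate 1, and without it the shares were 1.26% and 3.39%. Models are numbered within their gene by mean level.

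Of the 1546 models, 1045 (67.6%) were found in both libraries with any count, and 287 had 5 or more reads in both. In the other library 150 had another class: 107 an unannotated site, 42 an incomplete match and 1 antisense. Of the 595 models chosen in replicate 1, 78.0% (95% interval 74.4 to 81.3) were found in replicate 2, beside 86.6% of annotated chains, 58.8% of chains with an unannotated site and 56.4% of incomplete matches with 5 or more reads there. Of the 1179 chosen in replicate 2, 68.6% (65.9 to 71.3) were found in replicate 1, beside 90.5%, 65.5% and 65.5%. The classes differ in read number, so these shares are not at equal counts. From 5 to 9 reads in replicate 1, 72.3% of the models were found in replicate 2, beside 75.2% of annotated chains. From 10 to 19 reads there the shares were 84.3% and 84.4%. From 5 to 9 reads in replicate 2, 58.0% of the models were found in replicate 1, beside 79.7% of annotated chains. From 10 to 19 reads there the shares were 78.6% and 90.2%. From 50 reads up in replicate 2, 97.9% of the models were found.

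**Figure D2:**
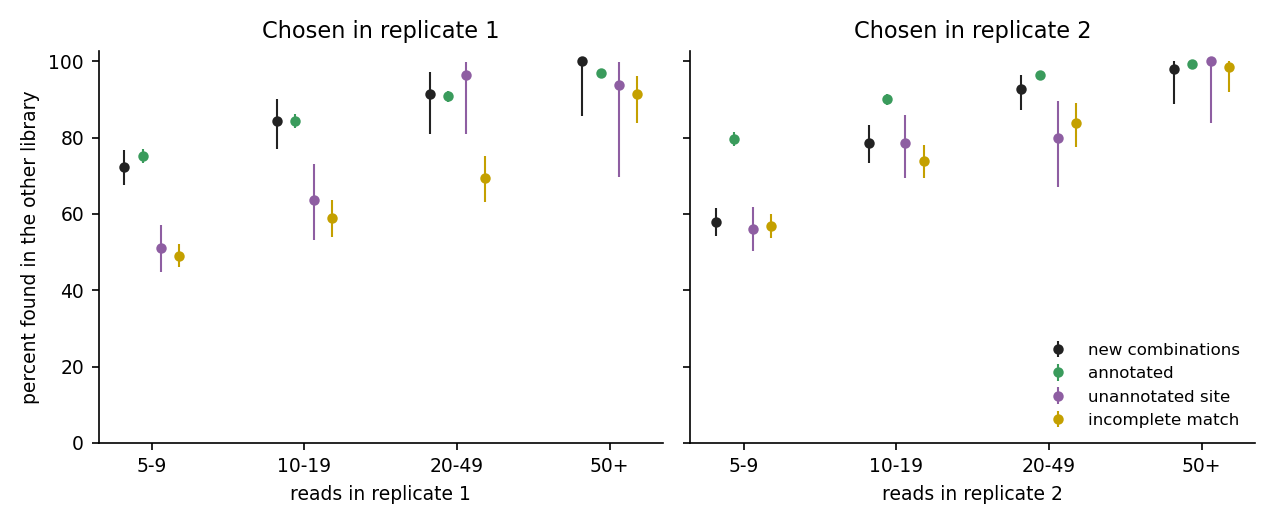
Percent of spliced chains found in the other library, by their reads in the library that chose them (left replicate 1, right replicate 2), for 4 classes; bars are 95% Clopper-Pearson intervals. New combinations (black) rose from 72.3% to 24 of 24 in the left panel and from 58.0% to 97.9% in the right one.

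Use is the percent of a gene's reads in a library that fell on the model, and it was computed for the 1307 models whose gene had 10 or more reads in each library. The median of the mean use was 5.00%, with quartiles of 1.81% and 11.8%. Median use was 2.63% in replicate 1 and 6.39% in replicate 2. Use was over 50% for 24 models, from 5% to 50% for 633 and under 5% for 650. Across the 938 of these models read in both libraries, Spearman's rho of use was 0.732 and Pearson's r of log2 CPM was 0.104. Both are descriptions, since the points share 2 libraries and models of 1 gene share its reads. A model of this class was the most read of its gene in both libraries for 104 models, 52 of them with 5 or more reads in each.

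**Figure D3:**
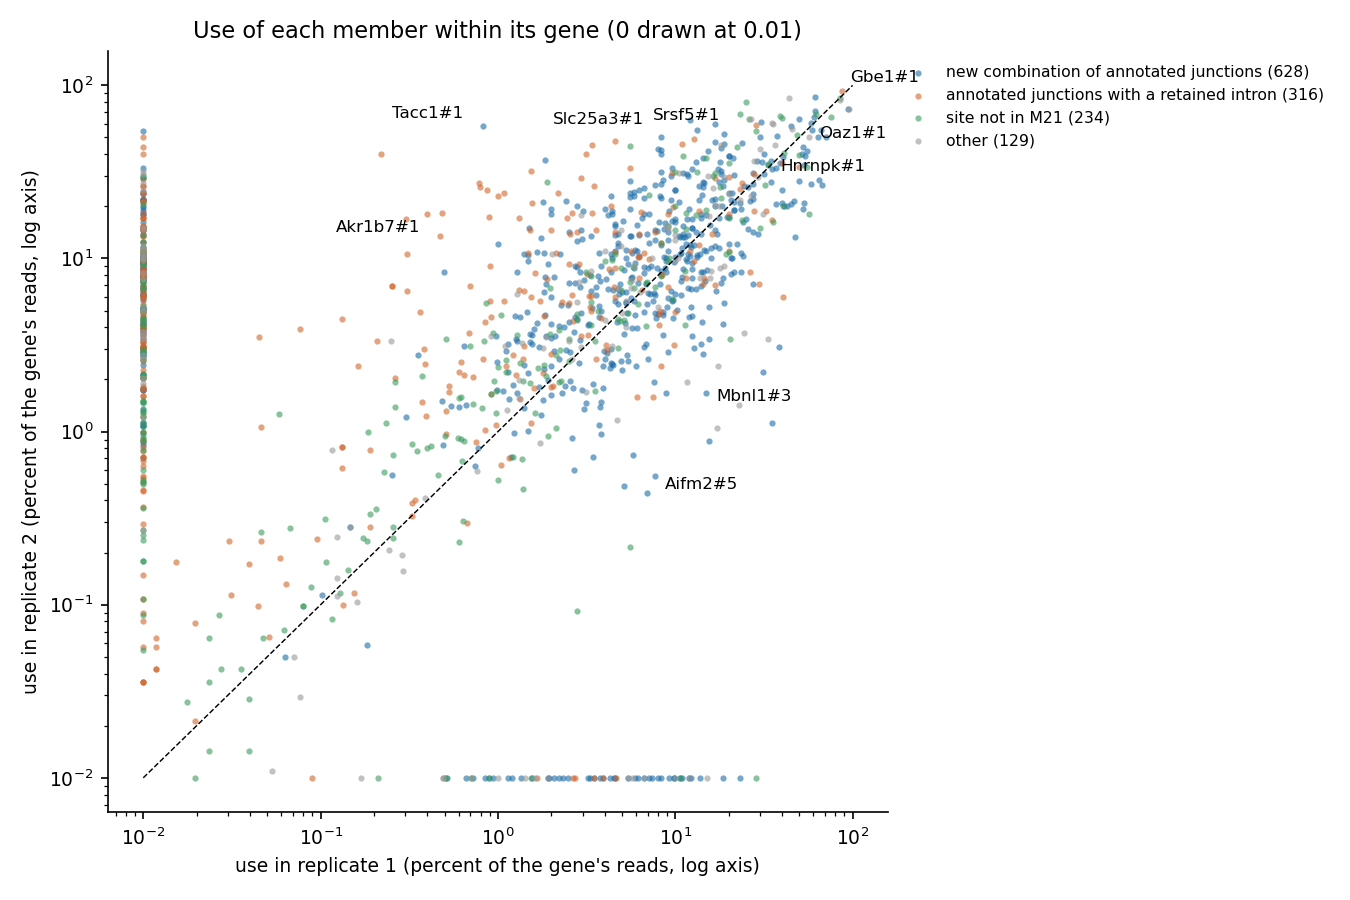
Use of each of the 1307 models in replicate 1 (x) and replicate 2 (y), both log axes, coloured by structure, with a use of 0 drawn at 0.01 and the dashed line marking equal use. Models with a retained intron (orange) had medians of 0.368% and 5.68%, beside 2.63% and 6.39% for all models, with Slc25a3#1 at 4.59% and 47.7%. More models were chosen by their reads in replicate 2 than in replicate 1.

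Oaz1#1 (chr10:80826656-80829005, plus strand, 5 exons) was the most read model of the class. It had 3229 reads of the gene's 3402 in replicate 1 and 41 of 56 in replicate 2, a use of 94.9% and 73.2%, while the best annotated transcript had 0 and 2 reads. Its level was 3985 and 69.7 CPM, reads scaled to the total of the library, so that replicate 1 was far above replicate 2. Annotated Oaz1 transcripts carry a gap of 4 nt (1 of 7 transcripts) or 1 nt (3 of 7) at the frameshift site, and the model reads through it. Translated without the shift, the model stopped after 68 codons, 344 nt before its last junction. Oaz2#1 had 127 of 149 and 71 of 86 reads of its gene, 85.2% and 82.6%, and there too the best annotated transcript had 0 and 2 reads. The difference in use between the libraries did not pass the threshold, with an adjusted p of 0.789 (Fisher's exact test, described further on). Nadk2#1, in the gene of a mitochondrial NAD kinase, filled an annotated gap of 1 or 4 nt with 15 and 25 reads, 36.6% and 45.5% of its gene.

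Lack of a very short exon was the second feature that ran through highly used models. Of the 1546 models, 46 in 33 genes lacked an exon of 27 nt or less that their closest annotated transcript has, and they held 1161 reads (8.62% of the reads on models) in replicate 1 and 1345 (6.73%) in replicate 2. Of 247 annotated exons lacked by any model, 37 (14.98%) were that short, beside 216 of the 14695 annotated internal exons of the same genes (1.47%). In 45 models 1 junction ran over the short exon. No base was added in 17 of these, as many bases were added as were lost in 9, and another number was added in 19. In 28 of the 45 the net change was a multiple of 3 nt. These numbers count models and not separate changes, since models of 1 gene can share a change. Most of the 9 were Hnrnpk models with the same 16 nt in place of the exon, and Rapgef4 and Immt models also shared changes.

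Hnrnpk encodes an RNA-binding protein of the hnRNP family. Its exon of 16 nt was in 0 of 402 reads spanning it in replicate 1 and in 0 of 696 in replicate 2, which allows a share of up to 0.746% and 0.431%. The 7 Hnrnpk models held 353 of 410 and 611 of 699 reads of the gene, 86.1% and 87.4%. Hnrnpk#1 had 136 and 244 reads, a use of 33.2% and 34.9%, and Hnrnpk#2 had 132 and 185 reads, a use of 32.2% and 26.5%. Both were high in both libraries, and the best annotated transcript had 1 read in each. Although as many bases were added as were lost, both models met a stop after 368 codons, 254 nt before the last junction.

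Idh3g#1, in the gene of a subunit of mitochondrial isocitrate dehydrogenase, had 220 of 291 reads in replicate 1 and 31 of 47 in replicate 2, a use of 75.6% and 66.0%. The exon of 12 nt that it lacks was in 0 of 273 and 0 of 45 spanning reads, which allows up to 1.10% and 6.67%. Phb2#1, in the gene of the mitochondrial scaffold protein prohibitin 2, had 192 of 204 and 19 of 26 reads, 94.1% and 73.1%. By a junction that another annotated transcript has, it joined exons over an exon of 6 nt. That exon was held by 0 of 199 and 0 of 24 spanning reads, which allows up to 1.51% and 12.5%. Phb2#1 was thus the main form of its gene in both libraries by the counts. Sept7#1, in the gene of a septin, a filament-forming GTP-binding protein, had 73 of 166 and 71 of 84 reads, 44.0% and 84.5%, over an exon of 5 nt held by 0 of 149 and 0 of 79 spanning reads. Mpc1#1, in the gene of a mitochondrial pyruvate carrier subunit, skipped an annotated exon of 4 nt, with 161 of 178 reads in replicate 1 and 1 of 4 in replicate 2. In Pitpnb, the gene of a phosphatidylinositol transfer protein, Pitpnb#1 (29 and 68 reads) lacked 8 nt and had 8 nt added. The frame ended early in Idh3g#1, Sept7#1 and Mpc1#1, after 46, 25 and 42 codons. Phb2#1 kept an annotated start and stop, and Pitpnb#1 could not be judged.

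The same measure was taken for all annotated internal exons of the models' genes with 10 or more spanning reads in each library. Of 20 exons of 1 to 9 nt, 20 were in 0 reads of both libraries, as were 37 of 40 exons of 10 to 18 nt, 24 of 72 of 19 to 27 nt and 60 of 419 of 28 to 50 nt. Of 4620 exons of 101 to 200 nt, 197 (4.26%) were in 0 reads. The median exon of 28 to 50 nt was in 97.5% and 94.8% of the spanning reads, whereas the median exon of 19 to 27 nt was in 4.35% and 3.48%. Exons under 19 nt were thus rarely read in any spliced model of these genes. Whether these exons are absent from the RNA or were lost in the placement of reads on the genome was not tested.

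**Figure D4:**
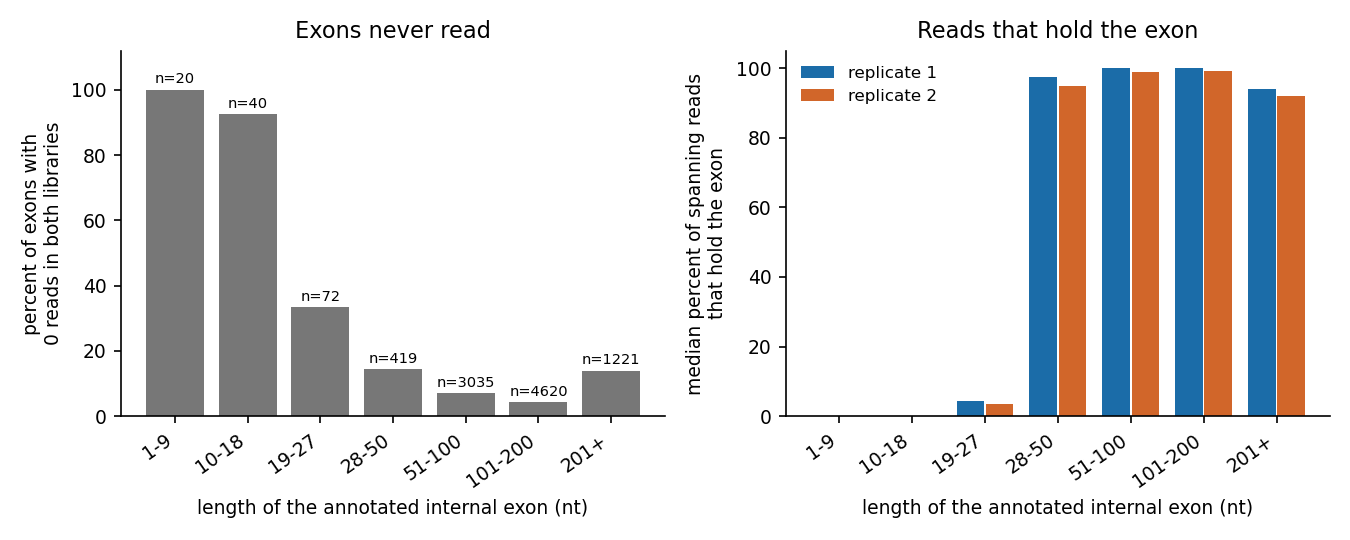
Annotated internal exons of the models' genes by length: percent with 0 reads in both libraries (left, with the number of exons) and median percent of spanning reads that hold the exon in each library (right). All 20 exons of 1 to 9 nt were at 0, and the medians were 97.5% and 94.8% for 28 to 50 nt.

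The 254 models with a site absent from M21 held 2046 reads in replicate 1 and 4860 in replicate 2, in 168 genes. They had 263 different sites of this kind, 153 donors and 110 acceptors. In 136 models (53.5%) the site lay within 6 nt of an annotated site of the same kind. Of the donors, 58 lay exactly 4 nt downstream of an annotated donor and 1 lay 4 nt upstream. Of the acceptors, 24 lay 3 nt downstream, 11 lay 3 nt upstream and 6 lay 4 nt downstream. In 63 models the site was over 100 nt from any annotated one.

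**Figure D5:**
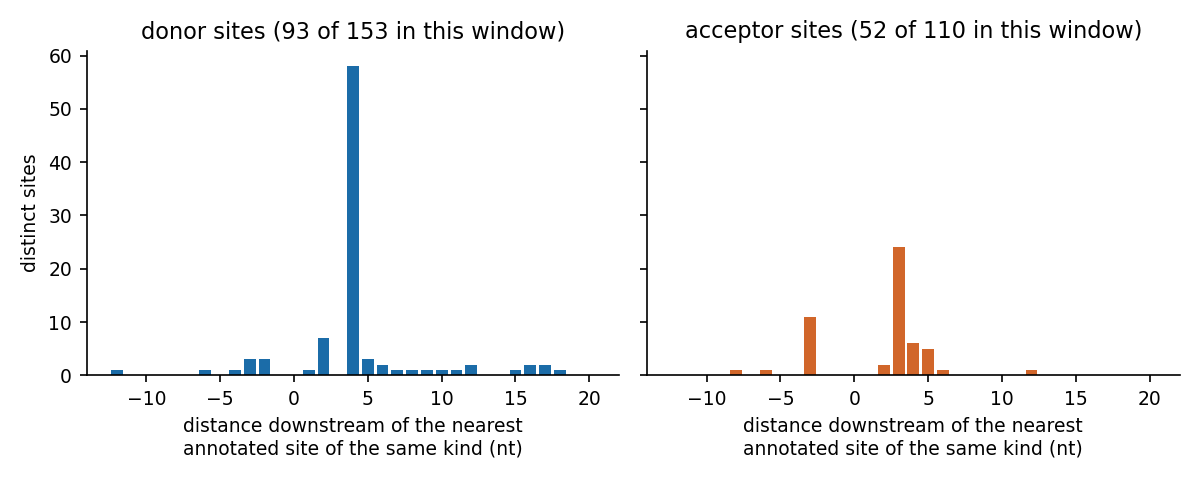
Distance of each unannotated site from the nearest annotated site of the same kind, for donors (left) and acceptors (right), in the window from -12 to 20 nt; bars count different sites. The bar at 4 nt downstream holds 58 donors and the bar at 3 nt downstream holds 24 acceptors.

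Aebp1#1, in the gene of a secreted matrix protein, had an acceptor 3 nt before the annotated one, with 24 of 162 and 293 of 770 reads, 14.8% and 38.1%. Star#1 had a donor 4 nt beyond that of the annotated intron, now chr8:25809939-25810944 in place of chr8:25809935-25810944, with 31 of 7804 and 111 of 13750 reads. Star carries cholesterol into the mitochondria, the step that starts steroid synthesis. Cyp11b1#1, in the gene of the enzyme that makes corticosterone, had the same shift of 4 nt with 29 of 11278 and 134 of 18259 reads. Both were rare forms of very highly read genes, at 0.397% and 0.807% of Star and 0.257% and 0.734% of Cyp11b1. Cyp11b1 has a closely related neighbour in Cyp11b2, so that reads of the pair are uncertain.

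Among new combinations of annotated junctions, 143 of 777 models had a moved donor, meaning another donor joined to the same acceptor as in the closest annotated transcript. A moved acceptor, meaning another acceptor joined to the same donor, was found in 130. These counts are not limited to neighbouring sites. A moved donor can be the end of another first exon, as in Tacc1#1 below, so exchanged first exons are in part counted here. A different first part of the chain was found in 165, a different last part in 72, a missing exon in 99 and an additional exon in 58. Of 125 different pairs of moved acceptors, 52 (41.6%) differed by exactly 3 nt, while of 135 pairs of donors 2 (1.48%) differed by 3 nt and 73 (54.1%) by over 100 nt.

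Cyb561#1 combined the upstream junctions of one annotated transcript with the downstream ones of another. Cyb561 encodes the cytochrome of the chromaffin granule membrane, which passes electrons inward for catecholamine synthesis. The model had 79 of 210 reads in replicate 1 and 360 of 706 in replicate 2, a use of 37.6% and 50.99%, and was the most read form of the gene in both. TALON classed the model as a new combination in replicate 1 and as an incomplete match in replicate 2. It kept the annotated reading frame of 250 codons and differed in the first intron (chr11:105937841-105940099). Cyb561#2, with 8 and 35 reads, had an additional exon of 279 nt and the same frame.

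Clu#1, a form of the secreted chaperone clusterin, had 233 of 360 and 72 of 253 reads, 64.7% and 28.5%, so that it was the first form in replicate 1 only. There TALON classed it as an incomplete match, and in replicate 2 as a new combination. Its first intron (chr14:65969900-65971731) was from another annotated transcript, and its frame of 448 codons was whole. Sec23b#1, in the gene of a coat protein of vesicles that leave the endoplasmic reticulum, had 51 of 77 and 127 of 231 reads, 66.2% and 55.0%, with the first donor moved by 18 nt. Retreg1#1, in the gene of a receptor for autophagy of the endoplasmic reticulum, had 45 of 74 and 40 of 61 reads, 60.8% and 65.6%. The last 2 were the most read form of their gene in both libraries. Tacc1#1, in the gene of a centrosome-associated protein, had 5 of 605 and 179 of 309 reads, 0.826% and 57.9%, with a first intron of 62799 nt in place of an intron of 23127 nt in its closest annotated transcript.

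Models with a retained intron were read mostly in replicate 2: they held 1363 reads, or 10.1% of the reads on models, in replicate 1 and 4506, or 22.6%, in replicate 2. Their median use was 0.368% and 5.68%, beside 2.63% and 6.39% for all models. Since 1179 models were chosen in replicate 2 and 595 in replicate 1, the choice itself bears on this contrast. The intron kept was internal in 319 of 348 models, in the last exon in 52 and in the first exon in 27, with some models in more than 1 of these. In 171 every retained intron lay within an exon of some annotated transcript, and in 177 it did not. Between the first and last junction of the model, the closest annotated transcript splices out a kept intron in 277 models and none in the other 71. Introns kept in a first or last exon lie outside that stretch, so the 71 can include models whose closest transcript splices such an intron out. The shortest retained intron of a model had a median of 240 nt and ranged from 21 to 2729 nt.

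Slc25a3#1 kept an intron of 1514 nt (chr10:91122044-91123557) of the mitochondrial phosphate carrier gene, with 79 of 1720 and 303 of 635 reads. Its use was 4.59% and 47.7%, and the best annotated transcript had 1392 and 122 reads. Srsf5#1, in the gene of an SR splicing factor, kept an intron of 1229 nt (chr12:80947866-80949094) and had 6 of 47 and 192 of 392 reads, 12.8% and 48.98%. In both the frame ended early, after 92 codons in Slc25a3 and 124 in Srsf5. In the next 3 models another intron also differed from the closest annotated transcript. That transcript splices out the kept intron in Aifm2#1 and does not in Cdkn1c#1. In Gbe1#1 the kept intron lay beyond the last junction of the model, where the 2 were not compared. Aifm2#1, in the gene of a ubiquinone reductase that protects membranes from lipid peroxidation, kept an intron at its end and differed by an additional intron of 5124 nt (chr10:61720732-61725855). It had 10 of 287 and 285 of 1085 reads, 3.48% and 26.3%, with its frame whole. Gbe1#1, in the gene of the glycogen branching enzyme, kept an intron of 61 nt in its last exon and differed by an intron placed 4 nt away at both ends (chr16:70401850-70433544 in place of chr16:70401854-70433548). It was the main form in both libraries, with 41 of 47 and 98 of 105 reads, 87.2% and 93.3%. Cdkn1c#1, in the gene of an imprinted inhibitor of cyclin-dependent kinases, kept an intron of 72 nt and differed by an additional intron of 174 nt (chr7:143460679-143460852). It had 233 of 999 and 48 of 190 reads, 23.3% and 25.3%. The differences in use of Gbe1#1 and Cdkn1c#1 between the libraries did not pass the threshold (adjusted p 0.427 and 0.784 by the Fisher's exact test described further on), while those of Slc25a3#1, Srsf5#1 and Aifm2#1 did.

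Of the 126 models with a new junction that skips exons, 124 had an annotated transcript that joins both ends through the skipped exons, and in 113 a single exon was skipped. The single exons had a median of 93 nt, from 3 to 2119 nt, and 62 (54.9%) were a multiple of 3 nt, beside 39.5% of the 14695 annotated internal exons of the genes. Trp53i11#1 had a new junction that skipped none, with an intron of 483 nt in place of the annotated 630 nt and the same donor, and had 13 of 56 and 71 of 327 reads, 23.2% and 21.7%. Introns absent from M21 numbered 438, and the bases at both ends could be read from annotated exons for 68 of them: 62 were GT-AG and 6 were GC-AG.

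In the 11 models whose sites no single gene held, reads cannot be given to 1 gene with certainty. Hgs#1, in the gene of an endosomal sorting protein, differed from its closest annotated transcript only by an acceptor 3 nt away. It had 14 and 61 reads but was given to a different gene in each library, so that its use was not defined. Pex16#1, in the gene of a peroxisome assembly factor, ended on 2 introns (chr2:92383114-92383207 and chr2:92383282-92383447) beyond those of its closest annotated transcript, and had 0 of 134 and 19 of 62 reads.

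For the reading frame, the annotated start of the gene was followed along the model. Of the 1524 models of protein-coding genes, 1214 could be judged, 193 held bases that no annotated transcript covers, and 115 had no annotated start. Of those judged, 443 (36.5%) kept an annotated frame whole, 318 (26.2%) had an annotated start and stop with a different stretch between, and 355 (29.2%) met a stop more than 50 nt before the last junction. A further 69 ended at another stop and 29 met none. New combinations of annotated junctions met an early stop in 99 of 774 models, and models with a retained intron in 176 of 339. Median use of the models with an early stop was 1.22% in replicate 1 and 5.67% in replicate 2, beside 5.13% and 8.02% for those with the frame whole.

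The use of each spliced chain was compared between the libraries by a two-sided Fisher's exact test of its reads against the other reads of its gene, for chains with 10 or more reads over both libraries in genes with 10 or more in each, with Benjamini-Hochberg adjustment over all 7423 chains and a threshold of 0.05. With 1 library on each side the test compares these libraries and has no replicate check. Of the models, 705 could be tested and 119 (16.9%) were called, 97 with the higher use in replicate 2 and 22 in replicate 1. The background was 25.5% of all chains, 14.6% higher in replicate 2 and 10.9% in replicate 1. It was 25.1% of annotated chains (16.1% and 9.03%) and 7.84% of chains with an unannotated site (5.33% and 2.51%). The models' own shares were 13.8% higher in replicate 2 and 3.12% in replicate 1. The directions of the background depended on the denominator. With spliced reads of the gene alone, 656 of 6911 chains were called higher in replicate 2 and 689 in replicate 1. Of 680 models tested in that way, 68 and 20 were called. The order of models and background turned when chains with 1 or more reads were tested, with 105 of 1307 models (8.03%) called beside 1.97% of all chains. Models have 5 or more reads in a library by the rule, while that background took in 75952 chains down to 1 read. The turn is therefore not a result about the models. Since 1179 models were chosen in replicate 2 and 595 in replicate 1, the choice itself bears on these directions, and a share near the background is not a result about the models. The retained-intron models held 51 of the 97 calls toward replicate 2 and 2 of the 22 toward replicate 1, from 139 tested. New combinations of annotated junctions held 27 and 16 from 363 tested.

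The models called higher in replicate 2 had a median length of 3162 nt and those called higher in replicate 1 of 1924 nt, in libraries whose read-weighted model lengths also differed. The part of length in these calls was not tested. The smallest adjusted p among calls toward replicate 2 was that of Slc25a3#1 (3.94e-122, Fisher's exact test), followed by Tacc1#1 (6.48e-94) and Akr1b7#1 (2.66e-81). Akr1b7, an aldo-keto reductase abundant in the adrenal cortex, kept an intron of 1048 nt (chr6:34416235-34417282) in 21 of 4458 reads of replicate 1 and 149 of 1106 of replicate 2. Akr1b7#2 kept that intron and another of 404 nt, with 2 and 39 reads. Akr1b7 has close relatives in the genome, which makes its reads uncertain. Toward replicate 1 the smallest were Clu#1 (4.38e-17), Aifm2#5 (1.85e-09), with 22 of 287 and 6 of 1085 reads, Zfp346#1 (8.19e-07), with 6 of 17 and 27 of 2401 reads, Mbnl1#3 (2.05e-06) and Oaz1#1 (2.35e-06). Mbnl1#3, in the gene of an RNA-binding regulator of splicing, lacked an exon of 54 nt and had 30 of 202 and 4 of 239 reads, 14.9% and 1.67%. Thus Aifm2 had models called in both directions. The level of Zfp346#1 was higher in replicate 2, at 7.41 and 45.9 CPM, so that its call toward replicate 1 rests on the other reads given to its gene.

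The genes of steroid synthesis, the main task of the adrenal cortex, gave 86 models in 10 of 15 genes. These models held few of the reads of their genes: 948 of 65946 (1.44%) in replicate 1 and 1465 of 59616 (2.46%) in replicate 2. Of 59 tested, 19 were called higher in replicate 2 and 0 in replicate 1, beside 13.8% and 3.12% of all models tested and 14.6% and 10.9% of all chains. Models of 1 gene share its reads, so these calls are not independent. Cyp21a1, the steroid 21-hydroxylase, had the most models of any gene, 29, with 1.59% and 2.25% of its reads. It has a close pseudogene copy, Cyp21a2-ps, itself with 6 models, so that reads of the pair are uncertain. Cyp11b1 had 16 models and Cyp11a1, the enzyme that cleaves the cholesterol side chain, had 14, with 2.53% and 7.37% of the reads of Cyp11a1. Hsd3b1 had 11333 and 2916 reads and no model of this class.

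Fdxr, the reductase that passes electrons to the mitochondrial steroid enzymes, differed from the other genes of that list. Its 9 models held 105 of 756 and 198 of 978 reads, 13.9% and 20.2%. Fdxr#1, with an acceptor moved by 54 nt, had 88 and 95 reads, 11.6% and 9.71%, and its difference in use did not pass the threshold (adjusted p 0.405, Fisher's exact test). Fdxr#2, which kept 2 introns, had 1 and 44 reads and was called higher in replicate 2 (adjusted p 4.73e-09).

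Of 16 chromaffin cell genes, 4 had models, 12 in all, with 130 of 7242 reads (1.80%) and 516 of 6964 (7.41%). Of 8 tested, 4 were called higher in replicate 2 and 0 in replicate 1, beside 13.8% and 3.12% of all models tested and 14.6% and 10.9% of all chains. Cyb561 gave 91 and 409 of the reads, and without it the shares were 0.555% and 1.71%. Th, which makes L-DOPA in the limiting step toward catecholamines, had 5 models with 11 of 980 and 66 of 310 reads, 1.12% and 21.3%. Th#1 kept 2 neighbouring introns of 360 nt and 331 nt (chr7:142895669-142896028 and chr7:142896080-142896410), with 3 and 33 reads, and was called higher in replicate 2 (adjusted p 2.07e-16, Fisher's exact test).

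Of 27 splicing factor genes, 11 had models, 26 in all, with 394 of 2724 reads (14.5%) and 1035 of 3659 (28.3%). Hnrnpk alone gave 353 and 611 of these reads, and without it the shares were 1.77% and 14.3%. Of 17 tested, 3 were called higher in replicate 2 and 0 in replicate 1. This was near the 13.8% and 3.12% of all models tested, beside 14.6% and 10.9% of all chains. Besides Hnrnpk, Srsf5 had 5 models with 9 of 47 and 286 of 392 reads, 19.1% and 73.0%. Srsf3#1 had 2 and 32 reads and Clk4#1, in the gene of a kinase of SR proteins, had 5 and 27. Both kept introns, and both were called higher in replicate 2, with Srsf5#1 as the third.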

How the data were processed

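Long-read RNA-seq models of 2 adrenal gland libraries were used. The authors deposited, for each model, the count of its reads with no normalization, and its exon number, length and exon positions as other values. TALON built the models in each library separately, per the file headers, on mm10 and GENCODE M21, which the accompanying notes name. Which aligner, read correction, platform and versions were used is not given in the sources used here. Models with a count of 5 or more and the class of new combinations were matched by junction chain, and each chain was set against all M21 transcripts. CPM are reads of a model scaled to the total of its library. Annotated gaps under 20 nt were treated as too short for an intron. The closest annotated transcript of the gene is the one sharing most junctions. Fisher's exact tests (SciPy 1.17.1), adjusted with statsmodels 0.14.6, were run on all spliced chains and were tested on simulated data. TMM factors (edgeR 4.0.16) served only the alternative test of level. A chain given to different genes in the libraries was not tested.

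Models named were the 12 with the highest mean CPM, the 8 with the highest mean use (5 or more reads in each library, genes with 20 or more), the 5 with the smallest adjusted p in each direction, the 2 with the highest mean CPM of each structure and the 3 with the highest of each gene list. Of these, 2 models are not reported here. Other models given with values (Nadk2, Pitpnb, Srsf3, Clk4, Fdxr#2) were chosen after their values were seen. The models and gene lists were chosen with earlier results of these data known. Tables were joined with Python 3.11.15 and pandas 2.3.3, and figures drawn with matplotlib 3.10.9.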

Additional observations from a re-analysis of the deposited data

How the results depend on the processing

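A count minimum of 3 gave 3262 models and one of 10 gave 608, and with 1 library as the source the number ranged from 595 to 1179. Found in both libraries were 84.0% at a minimum of 10 reads and 18.6% when 5 reads were asked of both, and the range with 1 library as the source was 68.6% to 78.0%. Models with a new junction were 26.97% at a minimum of 10 reads and 26.97% against junctions of the same gene alone, and 25.4% to 25.6% with 1 library as the source. Calls in the use test were 72 of 318 tested (22.6%, beside 29.4% of all chains) for chains with 20 or more reads, and 105 of 1307 (8.03%, beside 1.97%) for chains with 1 or more, where the order of models and all chains turned. That turn is not a result about the models, since the rule gives each 5 or more reads and the other chains go down to 1. A test of level, an exact binomial test on the counts, called 447 models with TMM-scaled totals and 500 with library totals, of 705 tested, beside 71.1% and 74.2% of all chains. The mean share of reads on models of splicing factor genes was 8.05% without Hnrnpk, beside 21.4%. Median use was 2.31% in genes with 50 or more reads in each library. The other alternatives moved values by less than the spread of the libraries, or counts by less than 1.5 times, among them the mean share of reads without Oaz1#1 (2.33%). That alternative, and the list shares without their most read gene, were chosen after seeing the data. The cause of these differences was not tested. No paired analysis was possible because there is 1 group, and its 2 replicates are the libraries compared. Leaving out a library was not possible for the use test for the same reason. Depth limits the models near 5 reads most, which stood for 6.17 and 8.51 CPM.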

Other observations

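Outside the gene lists, a few genes had much of their reads on several models of this class. Rapgef4 encodes a guanine nucleotide exchange factor that cAMP activates. Its 11 models held 26 of 90 reads in replicate 1 and 320 of 463 in replicate 2, 28.9% and 69.1%. Rapgef4#1, with 10 and 182 reads, had a site 4612 nt from the nearest annotated one. Kifc3, a kinesin motor gene, had 6 models with 25 of 61 and 232 of 349 reads, 41.0% and 66.5%. Atrx, a chromatin remodeller gene, had 5 models with 47 of 118 and 43 of 106 reads, 39.8% and 40.6%. Slc25a3 had 6.98% and 51.8% of its reads on 6 models, while Cdkn1c had 40.1% and 39.5% on 6. Rapgef4, Kifc3 and Atrx were chosen after their values were seen.

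Col6a1, the gene of a collagen VI chain, had 3 annotated exons of 9, 21 and 21 nt lacked by models, and none was in any of the 243, 218 and 218 spanning reads of replicate 2. In Bsg, Desi1 and Lgals8, in contrast, exons of 25, 22 and 27 nt lacked by models were held by most spanning reads, 83.2% and 76.6% in Bsg, 79.3% and 83.3% in Desi1 and 87.9% and 86.0% in Lgals8.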
